A study of Homo sapiens with 6 samples.

Results

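The TNF superfamily consists of ligands, most of them made as trimeric proteins of the cell membrane, and of receptors that bind them through cysteine-rich repeats. Genes of both sides were taken by name: every symbol that begins with TNFSF or TNFRSF and a digit, together with TNF, LTA, LTB, LTBR, CD40, CD70, CD27, FASLG, NGFR and EDAR. This gave 43 of the 17631 genes with a value, 17 ligands and 26 receptors. They were followed in MDA-MB-231 cells, an established human line of triple-negative breast cancer. Of 6 RNA-seq libraries, 3 came from cells given vehicle and 3 from cells given 30 µM PDBAG1 for 24 h. PDBAG1 is a synthetic peptide that joins a stretch of the enzyme GPD1 to a cell-penetrating sequence, and both groups were the same unmodified line in the same medium. The labels number the libraries within each group without naming separate cultures, so p values measure the spread between these libraries, which may be technical.

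Receptors of this family fall into broad kinds. Some carry a death domain inside the cell, through which they can recruit adaptors and caspases, and others bind TRAF adaptors that lead to NF-kB and kinase signalling. Decoy receptors bind a ligand without passing on a full signal. The ligands are best known from immune cells, where they control inflammation, lymphocyte co-stimulation and cell death, but tumour cells also express several of them. TRAIL, encoded by TNFSF10, has been studied in breast cancer as a ligand that can kill cells through the receptors DR4 and DR5.

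Levels are given in TPM, the number of transcripts of a gene per 1000000 transcripts of the library, a unit already scaled for gene length, so genes can be compared within a library. TPM keeps no record of depth, and the depth of each library is therefore unknown. A gene counted as expressed where 3 libraries or more listed it at 1 TPM or above, which held for 12582 genes. These were tested together with limma on the log2(TPM + 1) scale, and a call required an adjusted p (Benjamini-Hochberg) under 0.05. The log2 fold change (log2FC), PDBAG1 over vehicle, is on that scale throughout, with its standard error (SE), and understates the change of weakly expressed genes. Between 12392 and 12495 genes reached 1 TPM in the vehicle libraries and between 12563 and 12611 in the PDBAG1 libraries, without overlap between the groups. The line's own markers VIM, CD44, AXL and CAV1 summed to 5432 to 5616 TPM with vehicle and 7086 to 7199 TPM with PDBAG1. VIM made up most of this sum and rose with CD44, while AXL and CAV1 fell (log2FC 0.46, 0.59, -0.26 and -0.30, limma adjusted p = 1.02e-07, 1.15e-07, 0.000342 and 6.01e-05). PGR was under 0.5 TPM in every library, ESR1 was at 1.96 to 3.38 TPM and ERBB2 at 23.6 to 25.4 TPM. Of 5 T and NK cell markers 3 were in the files, of which CD8A was at 1.13 to 1.73 TPM, and CD3D and NKG7 stayed under 0.5 TPM. Of 5 B and plasma cell markers 3 were in the files, none of which reached 1 TPM. Of the 5 myeloid markers 4 reached 1 TPM in at least 1 library, with sums of 11.1 to 12.5 TPM under vehicle and 11.7 to 13.1 TPM under PDBAG1, while AIF1 stayed under 0.5 TPM. The 4 endothelial markers summed to 4.74 to 5.35 TPM with vehicle and 9.10 to 10.5 TPM with PDBAG1, a rise carried by PECAM1, while VWF and CDH5 stayed under 0.5 TPM. What part, if any, such transcripts had in the results below was not tested.

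Promoter sequences are shown for TNFSF9, a ligand gene that rose, and for the ligand gene TNFSF18 and the receptor gene TNFRSF21, which fell. Each is the stretch of 250 bases before the RefSeq start of the gene on GRCh38.p14, written 5′ to 3′ on the strand of the gene. Capitals mark the motifs ACGTG and GCGTG, the core letters of the hypoxia response element, searched on both strands. TGANTCA, the AP-1 motif, and the kappaB consensus were searched as well and are absent from these windows. TNFSF9 lies at chr19:6530776-6531025 on the plus strand, TNFRSF21 at chr6:47309906-47310155 on the minus strand and TNFSF18 at chr1:173050942-173051191 on the minus strand.
TNFSF9: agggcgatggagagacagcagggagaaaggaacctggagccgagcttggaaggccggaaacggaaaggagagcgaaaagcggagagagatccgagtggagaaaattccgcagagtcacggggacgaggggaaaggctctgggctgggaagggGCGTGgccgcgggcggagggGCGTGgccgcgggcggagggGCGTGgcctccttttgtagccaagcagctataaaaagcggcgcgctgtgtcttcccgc
TNFRSF21: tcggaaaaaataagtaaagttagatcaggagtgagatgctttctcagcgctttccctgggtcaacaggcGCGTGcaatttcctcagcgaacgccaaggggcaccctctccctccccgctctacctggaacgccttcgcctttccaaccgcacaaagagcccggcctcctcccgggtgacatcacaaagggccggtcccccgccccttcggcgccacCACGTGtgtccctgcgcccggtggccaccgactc
TNFSF18: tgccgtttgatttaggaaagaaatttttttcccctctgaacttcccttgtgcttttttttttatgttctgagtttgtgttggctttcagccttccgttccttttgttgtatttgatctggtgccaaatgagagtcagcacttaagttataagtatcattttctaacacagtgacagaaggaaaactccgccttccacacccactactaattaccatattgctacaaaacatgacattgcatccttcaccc
The TNFSF9 window held 3 copies of GCGTG in a short repeated stretch. TNFRSF21 held 1 GCGTG, and its ACGTG was read on both strands because it lies within the palindrome CACGTG. TNFSF18 held none of the 4 motifs. Of the 43 members, 27 had a RefSeq promoter in the table used. GCGTG occurred in 6 of these 27, against 41.3% of the 13951 promoters of genes in the files, and ACGTG in 2, against 21.6%. The AP-1 motif occurred in 4 of the 27, those of CD27, TNFRSF9, TNFSF14 and TNFSF15, against 4.74% of all promoters. The kappaB consensus occurred in 4, those of LTB, TNFRSF14, TNFRSF9 and TNFSF14, against 5.85%. In TNFRSF9 its 2 matches overlapped. The printed windows abut the gene start of the GENCODE v44 annotation, but for several other members the RefSeq start differs from it. Of the members with an AP-1 or kappaB match, the windows of TNFSF15, TNFRSF9, TNFRSF14 and TNFSF14 lie inside the GENCODE gene. The window of LTB reaches partly into its gene, and that of CD27 ends before the GENCODE start without reaching it. These matches are descriptions of letters and show no binding.

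Expression was uneven between the 2 sides of the family. Of the 26 receptors 18 were expressed, 17 of them at 1 TPM or more in all 6 libraries, whereas 9 of the 17 ligands were expressed, 7 of them in all 6. The receptor genes together summed to 751, 752 and 749 TPM in the vehicle libraries and to 852, 791 and 830 TPM with PDBAG1. The ligand genes summed to 84.5, 79.3 and 73.3 TPM with vehicle and to 105, 89.0 and 98.7 TPM with PDBAG1. Both sums were higher in every PDBAG1 library than in any vehicle library. Receptor transcripts outnumbered ligand transcripts by a ratio of 9.53 ± 0.664 with vehicle and 8.48 ± 0.375 with PDBAG1 (SD over n = 3 per group). These ratios nearly touched, the lowest with vehicle being 8.890 and the highest with PDBAG1 8.881. Most of the gain in the ligand sum came from TNFSF9, with means of 17.1 and 27.4 TPM, and TNFSF12, with 28.9 and 34.6 TPM. TNFSF12 overlapped between the groups and was not called, so the ratio does not describe the ligands as a class. In such bulk libraries a lower share of cells with a transcript and less of it per cell cannot be told apart. A few genes made up most of each sum. TNFRSF12A, TNFRSF1A, LTBR and TNFRSF21 took 74.2% ± 1.01 of the receptor sum in the vehicle group, and TNFSF12, TNFSF9 and TNFSF13 took 72.6% ± 2.17 of the ligand sum (SD over n = 3 per group).

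Of the 27 expressed members, 16 (59.3%) were called, against 37.6% of all 12582 genes tested. Higher with PDBAG1 were 12 members (44.4%, against 21.7% of all genes), and lower were 4 (14.8%, against 15.9%). Among the ligands 2 rose, 1 fell and 6 were not called, with a median log2FC of 0.11. This count and median include the readthrough entry TNFSF12-TNFSF13 (log2FC -0.28, SE 0.55), which was not called. It shares exon bases with TNFSF12 and TNFSF13, so these entries are not independent. Among the receptors 10 rose, 3 fell and 5 were not called, with a median of 0.20. The median over all genes tested was 0.03. No test was made of the difference between ligands and receptors, because the members were chosen with results known. A change of at least 1.5-fold in addition to the adjusted p was reached by 2 of the 27 members, against 3.34% of all genes, TNFSF9 upward and TNFSF18 downward. Over all genes it was reached by 2.86% upward and 0.477% downward. With a pseudocount of 0.1, which compresses weak genes less, 7 members passed this limit, the additions being TNFRSF10C, TNFRSF19, TNFRSF1B, TNFRSF25 and TNFSF15. The number was 5 without vehicle replicate 1, and 1 without vehicle replicate 3, where TNFSF9 dropped out. The libraries of the groups did not overlap in 16 members, 12 with PDBAG1 above and 4 with PDBAG1 below, against 27.2% and 20.2% of all genes. TNFSF18 passed the expression filter through the vehicle group alone and TNFRSF25 through the PDBAG1 group alone, so that a difference in these 2 was favoured by the filter itself. Another scaling moved the split over all genes: 57.8% of the called genes were higher as deposited and 46.7% under quantile normalization, where 10 members rose and 4 fell.

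**Figure D1:**
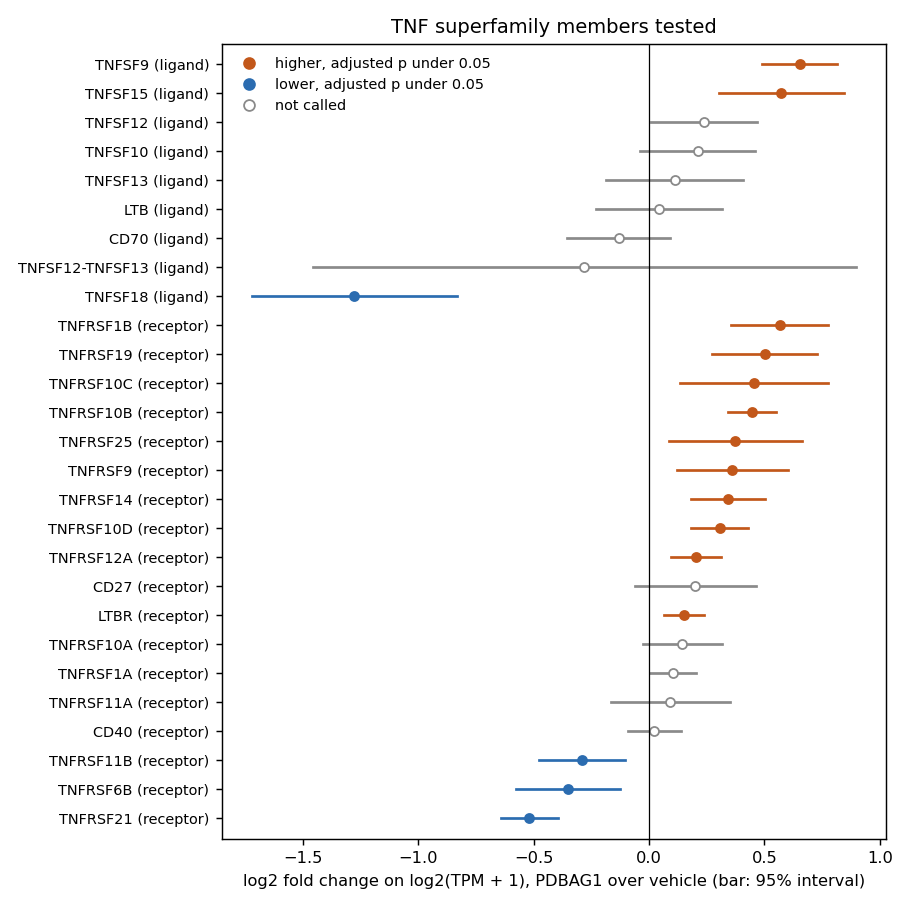
Log2FC with its 95% interval for the 27 expressed members, ligands above receptors, on the log2(TPM + 1) scale (orange higher, blue lower, open grey not called). On this scale TNFSF9 at 0.65 and TNFRSF1B at 0.57 head their sides, and TNFSF18 at -1.28 and TNFRSF21 at -0.52 stand at the other end.

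Among ligands of lymphocyte co-stimulation, TNFSF9 rose. TNFSF9 encodes the 4-1BB ligand, a co-stimulator of activated T cells (chromosome 19, 6531026 to 6535924, plus strand, GRCh38, GENCODE v44), and its promoter is the first of those printed above. It was at 18.76, 17.45 and 15.11 TPM in the vehicle libraries and at 27.5, 26.5 and 28.1 TPM with PDBAG1. All PDBAG1 libraries lay above the vehicle libraries, and the spread was narrower among them. The mean went from 17.1 ± 1.85 to 27.4 ± 0.799 TPM (SD over n = 3 per group), a log2FC of 0.65 (SE 0.08, limma adjusted p = 1.84e-05). TNFSF9 took 21.6% ± 0.863 of the ligand sum with vehicle and 28.2% ± 1.81 with PDBAG1 (SD over n = 3 per group). Its receptor 4-1BB, encoded by TNFRSF9, was near the expression limit and moved the same way. TNFRSF9 was at 1.36, 1.78 and 1.54 TPM with vehicle and at 2.24, 2.47 and 2.14 TPM with PDBAG1, without overlap (log2FC 0.36, limma adjusted p = 0.0205). Its call was lost under quantile normalization and in 3 of the 6 fits that left out a library.

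TNFSF15 encodes TL1A, a ligand that co-stimulates T cells and acts on blood vessels. It was at 3.17, 2.38 and 2.48 TPM with vehicle and at 4.54, 3.62 and 5.31 TPM with PDBAG1. The groups did not overlap, and the log2FC was 0.57 (SE 0.13, limma adjusted p = 0.00296). Its receptor, death receptor 3, is encoded by TNFRSF25 and was listed at 0.81, 0.75 and 0.89 TPM with vehicle and at 1.80, 1.05 and 1.27 TPM with PDBAG1. The log2FC of TNFRSF25 was 0.37 (limma adjusted p = 0.0413), a call that was lost in 7 of 12 alternatives. TNFRSF25 shares 383 exon bases with ESPN on the other strand. ESPN was at 0.48, 0.55 and 0.34 TPM with vehicle and at 0.72, 0.67 and 0.52 TPM with PDBAG1, with overlap. Whether reads of ESPN entered the values of TNFRSF25 was not tested.

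TNFSF18, the gene of the GITR ligand (chromosome 1, 173039202 to 173050941, minus strand, GRCh38, GENCODE v44), went the other way. It was at 3.70, 1.28 and 2.59 TPM with vehicle and at 0.29, 0.60 and 0.31 TPM with PDBAG1. The vehicle libraries differed among themselves by more than a factor of 2, yet the lowest of them lay above every PDBAG1 library. The log2FC was -1.28 (SE 0.21, limma adjusted p = 0.000303), and the call was kept in all 12 alternatives with values from -2.33 to -1.04. TNFSF18 passed the expression filter through the vehicle group alone, so the filter itself favoured a fall. The fits that left out a library kept the genes of that filter. With no filter the limma adjusted p was 0.00630. The receptor GITR, TNFRSF18, was not expressed, at 0.13 to 0.53 TPM. Both neighbours of TNFSF18 on the chromosome were below the limit, TNFSF4, the OX40 ligand gene, at 0.80 to 1.07 TPM and FASLG, the Fas ligand gene, at 0.06 TPM or less.

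CD70, the ligand of CD27, was the remaining expressed gene of this kind. It was at 2.97, 3.05 and 2.60 TPM with vehicle and at 2.39, 2.79 and 2.43 TPM with PDBAG1 (log2FC -0.13, 95% interval -0.35 to 0.09, limma adjusted p = 0.347). CD27, a receptor of lymphocytes, was at 1.45 to 1.95 TPM with vehicle and at 1.83 to 2.51 TPM with PDBAG1 (log2FC 0.20, limma adjusted p = 0.217). Both genes overlapped between the groups. TNFSF14, which encodes LIGHT, and TNFSF8, the CD30 ligand gene, were not expressed, although TNFSF14 was higher in each PDBAG1 library (0.58 to 0.66 TPM) than in any vehicle library (0.29 to 0.55 TPM), with a limma adjusted p of 0.0919 when no filter was applied. TNFSF9, CD70 and TNFSF14 lie within 140 kb of each other on chromosome 19, and of these 3 neighbours TNFSF9 alone was called.

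TRAIL and its receptors were all expressed. TNFSF10, which encodes TRAIL, was at 5.57, 4.63 and 3.99 TPM with vehicle and at 6.49, 5.21 and 5.15 TPM with PDBAG1. These ranges overlapped, and the log2FC of 0.21 (95% interval -0.04 to 0.46, limma adjusted p = 0.172) was not called. Without vehicle replicate 1 TNFSF10 had a log2FC of 0.31 and was called (limma adjusted p = 0.0476), and without vehicle replicate 3 or PDBAG1 replicate 1 its log2FC was 0.12. The receptor genes TNFRSF10B, TNFRSF10C, TNFRSF10D and TNFRSF10A lie in this order within 205 kb on chromosome 8. Of these 4, 3 rose, against 21.7% of all genes tested. TNFRSF10B, the gene of the death receptor DR5, had the tightest groups, at 44.55, 43.18 and 42.30 TPM with vehicle and at 59.74, 59.35 and 59.09 TPM with PDBAG1. Its log2FC was 0.45 (SE 0.05, limma adjusted p = 9.83e-06), and it passed the test in all 12 alternatives. TNFRSF10A, the gene of the other death receptor DR4, was at 19.3, 17.1 and 16.9 TPM and at 19.9, 17.9 and 21.6 TPM, with overlap (log2FC 0.14, 95% interval -0.03 to 0.31, limma adjusted p = 0.171). The share of TNFRSF10B in the sum of both death receptor genes went from 70.9% ± 1.05 to 75.1% ± 1.78 (SD over n = 3 per group), without overlap.

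The membrane decoys rose too. TNFRSF10D, the gene of DcR2, which has a truncated death domain, was at 39.0, 36.0 and 39.4 TPM with vehicle and at 46.1, 46.1 and 50.1 TPM with PDBAG1 (log2FC 0.31, SE 0.06, limma adjusted p = 0.000906). TNFRSF10C, the gene of DcR1, was far lower, at 2.84, 1.62 and 2.02 TPM with vehicle and 3.44, 2.58 and 3.92 TPM with PDBAG1. Its groups overlapped, and its call (log2FC 0.45, limma adjusted p = 0.0278) was lost in 6 of 12 alternatives. The summed death receptors over the summed membrane decoys gave ratios of 1.53, 1.60 and 1.43 with vehicle and of 1.61, 1.59 and 1.49 with PDBAG1. The ratios overlapped, so the balance between the signalling and the decoy transcripts did not differ beyond the spread. The 4 genes are close paralogues, and how reads common to them were shared out was not stated. TNFRSF10B also shares 377 exon bases with RHOBTB2 on the other strand, which was at 3.48 to 4.11 TPM in all libraries.

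**Figure D2:**
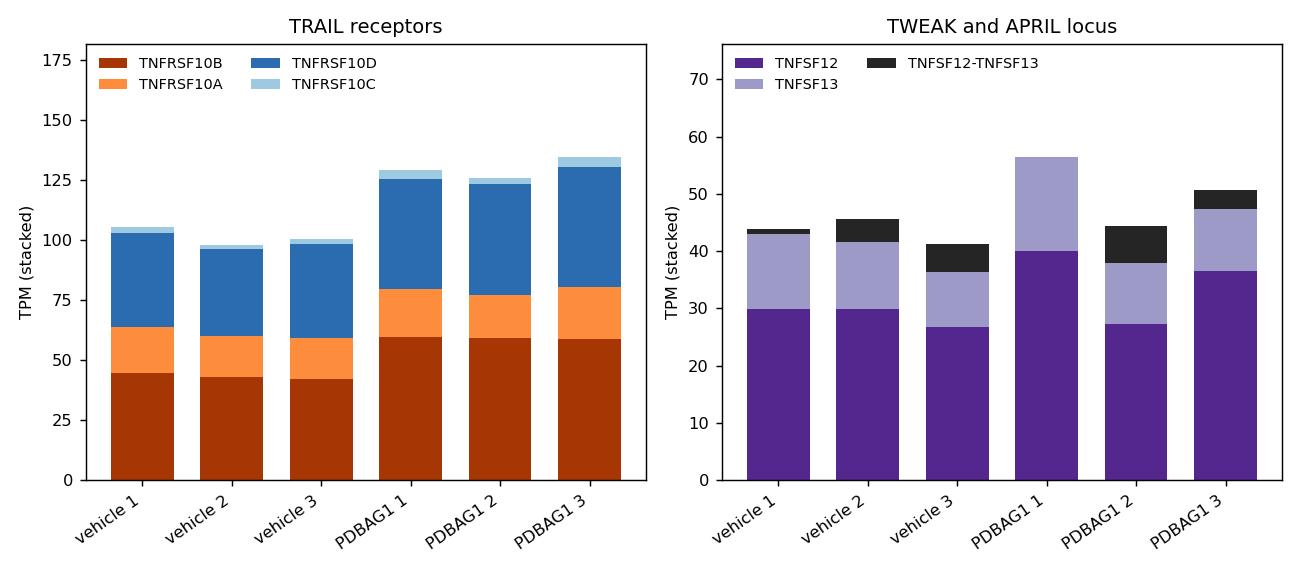
Stacked TPM per library for the TRAIL receptor genes (left) and for TNFSF12, TNFSF13 and their readthrough transcript (right), with both axes from 0. On the left TNFRSF10B and TNFRSF10D are taller in the PDBAG1 libraries, and on the right the readthrough segment is absent in PDBAG1 replicate 1 and between 1.02 and 6.58 TPM elsewhere.

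Soluble decoys fell, in contrast to the membrane decoys. TNFRSF11B encodes osteoprotegerin, which captures RANK ligand and TRAIL, and it was at 5.43, 5.47 and 5.09 TPM with vehicle and at 4.14, 4.23 and 4.17 TPM with PDBAG1. The groups did not overlap (log2FC -0.29, SE 0.09, limma adjusted p = 0.0180). Blocking on the replicate number gave a limma adjusted p of 0.0534, and the call was also lost without vehicle replicate 2 or PDBAG1 replicate 2. TNFRSF6B encodes DcR3, a secreted decoy for Fas ligand, LIGHT and TL1A. It was at 15.3, 11.6 and 11.99 TPM with vehicle and at 9.06, 11.2 and 9.48 TPM with PDBAG1 (log2FC -0.35, SE 0.10, limma adjusted p = 0.0170). The gap between the groups was small, and without vehicle replicate 1 the log2FC was -0.23 with a limma adjusted p of 0.0673. With no filter on low values the adjusted p from limma was 0.0686. All 1140 bases that TNFRSF6B shares with another gene on its strand belong to the readthrough RTEL1-TNFRSF6B, and RTEL1 itself was at 19.4 to 23.2 TPM with vehicle and 18.1 to 19.1 TPM with PDBAG1 (log2FC -0.18, limma adjusted p = 0.0679).

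Among death domain receptors other than those of TRAIL, TNFRSF21 fell. It encodes death receptor 6, a receptor known from neurons and lymphocytes (chromosome 6, 47231532 to 47309905, minus strand, GRCh38, GENCODE v44), and its promoter is printed above. It was at 67.7, 69.5 and 60.4 TPM with vehicle and at 46.0, 44.3 and 46.3 TPM with PDBAG1. Every PDBAG1 library lay below every vehicle library, and the log2FC was -0.52 (SE 0.06, limma adjusted p = 1.28e-05). Its rank by mean level among the 26 receptors changed from 4 to 7. TNFRSF1A, the gene of TNF receptor 1, was at 127.08, 139.62 and 130.60 TPM with vehicle and at 147.0, 140.42 and 139.74 TPM with PDBAG1. The PDBAG1 libraries were higher by a narrow margin, and the log2FC of 0.10 (95% interval 0.01 to 0.20, limma adjusted p = 0.0892) was not called. It was called under quantile normalization (log2FC 0.14, limma adjusted p = 0.0415) and without vehicle replicate 2 (log2FC 0.14, limma adjusted p = 0.0448). NGFR, the p75 neurotrophin receptor gene, and EDAR, the ectodysplasin receptor gene, were not expressed, at 0.83 TPM or less and 0.03 TPM or less.

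TNF receptor 2 rose from a low level. TNFRSF1B, its gene, was at 2.74, 2.39 and 2.36 TPM with vehicle and at 4.07, 4.08 and 4.37 TPM with PDBAG1, without overlap. The log2FC was 0.57 (SE 0.10, limma adjusted p = 0.000500), the largest of the receptors on this scale. The ratio of TNFRSF1A to TNFRSF1B transcripts was 53.4 ± 6.25 with vehicle and 34.2 ± 2.08 with PDBAG1 (SD over n = 3 per group), and its values did not overlap. TNF itself, the ligand of both, did not reach the expression limit. It was at 0.63, 0.12 and 0.19 TPM with vehicle and at 1.14, 0.65 and 0.99 TPM with PDBAG1, so that its lowest PDBAG1 library stood just above its highest vehicle library. With no filter, TNF had a log2FC of 0.56 (SE 0.15, limma adjusted p = 0.0299), and the other 15 members below the expression limit were not called in that fit. Next to it on chromosome 6, LTA was at 0.21 to 0.62 TPM (log2FC -0.02 with no filter, limma adjusted p = 0.913), and LTB was at 2.12 to 3.30 TPM over both groups (log2FC 0.04, limma adjusted p = 0.818).

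Of the 9 TRAF-binding receptors expressed, 6 were higher (66.7%, against 21.7% of all genes) and 0 were lower (against 15.9%): TNFRSF12A, LTBR, TNFRSF14, TNFRSF19, TNFRSF1B and TNFRSF9. TNFRSF12A encodes Fn14, the receptor of TWEAK, and was the most abundant gene of the family, at a level above 96.3% of all genes with a value in the vehicle group. It was at 233, 235 and 249 TPM with vehicle and at 296, 256 and 276 TPM with PDBAG1 (log2FC 0.21, SE 0.05, limma adjusted p = 0.00598). The call was not kept under median-of-ratios scaling (0.17, adjusted p = 0.0596). LTBR, the lymphotoxin beta receptor gene, was at 121, 121 and 118 TPM and at 136, 130 and 134 TPM, without overlap (log2FC 0.15, limma adjusted p = 0.0100), and the call was lost without vehicle replicate 3 (limma adjusted p = 0.0543). It shares 422 exon bases with SCNN1A on the other strand, whose log2FC was 0.15 (limma adjusted p = 0.174) at 9.70 to 12.6 TPM.

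TNFRSF14 encodes HVEM, the receptor of LIGHT. It was at 12.54, 11.54 and 12.25 TPM with vehicle and at 16.42, 14.34 and 16.09 TPM with PDBAG1 (log2FC 0.34, SE 0.07, limma adjusted p = 0.00285). TNFRSF19, the gene of TROY, a receptor without a settled ligand of this family, was at 2.21, 2.00 and 1.78 TPM with vehicle and at 3.12, 3.55 and 3.05 TPM with PDBAG1 (log2FC 0.50, SE 0.11, limma adjusted p = 0.00224). Neither gene overlapped between the groups. CD40, an activating receptor of antigen-presenting cells, was abundant and level, at 47.14, 47.76 and 46.19 TPM with vehicle and at 49.97, 45.15 and 48.39 TPM with PDBAG1. Its log2FC was 0.02 with a 95% interval of -0.09 to 0.14 (limma adjusted p = 0.764). TNFRSF11A, the gene of RANK, was at 3.15 to 4.64 TPM and at 3.81 to 4.74 TPM (log2FC 0.09, 95% interval -0.17 to 0.35, limma adjusted p = 0.582), and its ligand gene TNFSF11 was at 0.06 TPM or less. CD40 and TNFRSF11A changed sign under another scaling, and neither was called there.

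TWEAK and APRIL, encoded by TNFSF12 and TNFSF13, are neighbours on chromosome 17 joined by a readthrough transcript that has its own entry, TNFSF12-TNFSF13. TNFSF12 was at 29.9, 30.0 and 26.7 TPM with vehicle and at 40.1, 27.3 and 36.6 TPM with PDBAG1, which made it the most abundant ligand in both groups. TNFSF13 was at 13.01, 11.64 and 9.62 TPM and at 16.3, 10.6 and 10.8 TPM. For the readthrough the values were 1.02, 3.99 and 4.83 TPM with vehicle and 0, 6.58 and 3.33 TPM with PDBAG1. The library in which the readthrough was listed at 0, PDBAG1 replicate 1, had the highest TNFSF12 and TNFSF13. The readthrough shares 553 exon bases with TNFSF12 and 1263 with TNFSF13 on the same strand. None of the 3 was called, with log2FC values of 0.24 for TNFSF12 (limma adjusted p = 0.0944), 0.11 for TNFSF13 (limma adjusted p = 0.559) and -0.28 for the readthrough (limma adjusted p = 0.720). Without PDBAG1 replicate 2 TNFSF12 had a log2FC of 0.40 and was called, and without PDBAG1 replicate 1 it was 0.13. The sum of the 3 entries was 43.9, 45.6 and 41.2 TPM with vehicle and 56.40, 44.45 and 50.72 TPM with PDBAG1, and overlapped between the groups.

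The B cell branch was nearly silent beyond TNFSF13. TNFSF13B, the BAFF gene, was at 0.54 to 0.88 TPM, and its receptor gene TNFRSF13C was at 0.87 to 1.15 TPM with vehicle and at 0.77 to 0.97 TPM with PDBAG1. TNFRSF13B was listed at 0 in all vehicle libraries and at 0.08 to 0.24 TPM with PDBAG1 (limma adjusted p = 0.0681 with no filter), and TNFRSF17, the BCMA gene, stayed at 0.12 to 0.24 TPM. Of the 16 members that were not expressed, 13 were below 1 TPM in every library, and TNF, TNFSF4 and TNFRSF13C reached it in 1 or 2 libraries. TNFRSF4 and TNFRSF8, the genes of OX40 and CD30, were among the 13, at 0.10 TPM or less and 0.15 to 0.32 TPM.

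Set beside their partners, 31 known pairs of a ligand and a receptor could be formed, and both sides were expressed in 11. Both rose in 2 pairs, TNFSF9 with TNFRSF9 and TNFSF15 with TNFRSF25. TNFRSF25 entered the count through the PDBAG1 group alone, so the filter itself favoured a rise. Its call was lost in 7 of 12 alternatives, and that of the weakly expressed TNFRSF9 in 4 of 12. In 6 pairs the receptor was called and the ligand was not, in 2 neither was called, and TNFSF15 rose while its decoy TNFRSF6B fell. TNFSF10 was the ligand in most of these 6 pairs, and of its called receptors TNFRSF11B fell. No expressed pair had a called ligand and an uncalled receptor, but few could, because TNFSF9 and TNFSF15 were the only called ligands with an expressed receptor. Another 12 pairs had an expressed receptor without an expressed ligand, and 3 an expressed ligand without an expressed receptor. The pairs share genes and are not independent.

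**Figure D3:**
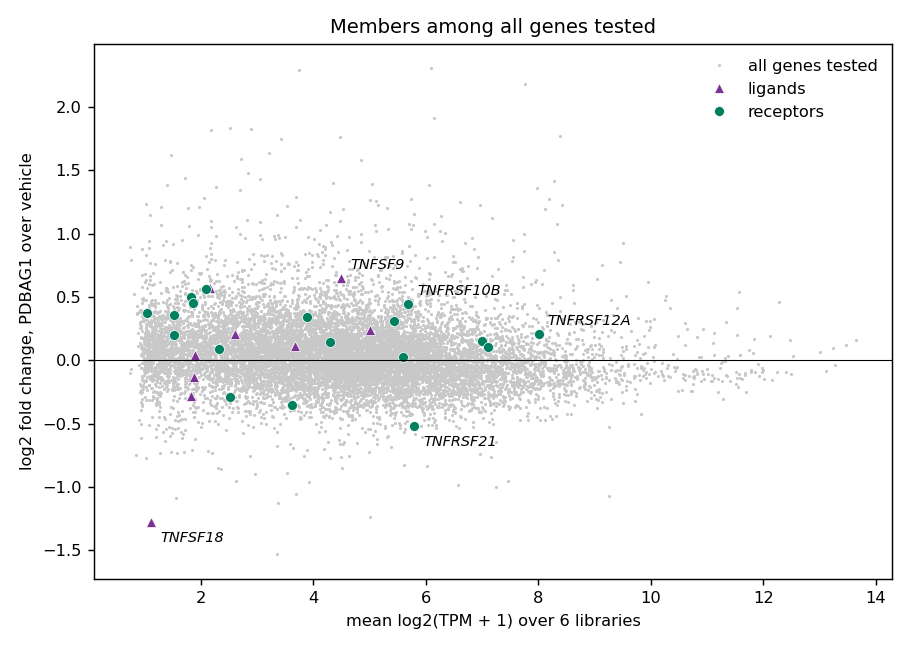
Log2FC against mean log2(TPM + 1) over 6 libraries for all 12582 genes tested (grey), with the 9 expressed ligands as purple triangles and the 18 expressed receptors as green circles. TNFSF18 at -1.28 is near the lower edge of the cloud. Counted from the highest log2FC of the 12582 genes, TNFSF9 ranks 271, TNFRSF10B 752 and TNFRSF21 12481.

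By position, 25 of the 43 members lay in 9 groups of neighbours, with gaps of at most 500 kb between consecutive members (GRCh38, GENCODE v44). The TRAIL receptor genes were the one group with more than 1 called member, 3 of 4 higher, against 21.7% of all genes tested. Of these 3, TNFRSF10C overlapped between the groups and lost its call in 6 of 12 alternatives. On chromosome 12, TNFRSF1A, LTBR and CD27 span 123 kb, and LTBR was the one of the 3 called. TNFSF15 and TNFRSF1B were called beside the unexpressed TNFSF8 and TNFRSF8.

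Family members with other names were also examined. FAS, a death domain receptor, was at 7.87, 7.31 and 6.61 TPM with vehicle and at 7.40, 6.89 and 6.81 TPM with PDBAG1 (log2FC -0.04, 95% interval -0.23 to 0.15, limma adjusted p = 0.757). RELT, a receptor related to TNFRSF19, was at 14.5, 14.7 and 14.3 TPM with vehicle and at 22.9, 21.9 and 22.2 TPM with PDBAG1. RELT thus rose without overlap (log2FC 0.59, SE 0.06, limma adjusted p = 7.91e-06), and it narrowly passed the 1.5-fold limit. It fell short of the limit under median-of-ratios scaling (0.557) and quantile normalization (0.534). The same held without vehicle replicate 3 (0.579) or PDBAG1 replicate 1 (0.572). CD40LG, EDA and EDA2R were at 0.12 TPM or less.

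Of 51 genes that belong to these further members or relay or process the signals, 47 were expressed, 18 of which rose and 3 fell (38.3% and 6.38%, against 21.7% and 15.9% of all genes tested). The number that fell was 1 with no filter on low values, 1 without vehicle replicate 1, 2 without vehicle replicate 3 and 1 without PDBAG1 replicate 2. Of the 7 TRAF adaptors 2 rose (28.6%, against 21.7% of all genes) and none fell (against 15.9%). TRAF1, an adaptor of TNF receptor 2 and 4-1BB, was at 10.3, 11.1 and 10.9 TPM with vehicle and at 19.5, 18.8 and 16.9 TPM with PDBAG1 (log2FC 0.72, limma adjusted p = 6.50e-06). TRAF5 had a log2FC of 0.30 (limma adjusted p = 0.00436). For TRAF2, the adaptor used by many of these receptors, it was -0.14 (95% interval -0.28 to 0.01, limma adjusted p = 0.140).

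Among 20 ubiquitin and kinase relays 8 rose and 2 fell (40% and 10%, against 21.7% and 15.9% of all genes tested). TNFAIP3, whose product A20 restrains TNF receptor signalling, went from 15.1 ± 0.286 to 28.3 ± 1.93 TPM and its partner TNIP1 from 248 ± 9.19 to 429 ± 3.27 TPM (SD over n = 3 per group), with log2FC values of 0.86 and 0.79 (limma adjusted p = 4.38e-07 and 3.65e-09). BIRC3, which encodes cIAP2, rose by 0.54 on the log2 scale, from 32.2 ± 1.81 to 47.4 ± 2.33 TPM (SD over n = 3 per group), while its relative BIRC2 had a log2FC of -0.09 (limma adjusted p = 0.273). The 2 that fell were CHUK and MAP3K14, with log2FC values of -0.19 and -0.32 (limma adjusted p = 0.0252 and 0.00518). Their products IKKalpha and NIK act in non-canonical NF-kB signalling.

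Of the 11 death signalling genes 10 were expressed, and RIPK3, a kinase of necroptosis, was at 0.06 TPM or less. Of the 10 expressed, 3 rose and 1 fell (30% and 10%, against 21.7% and 15.9% of all genes tested). TRADD, the adaptor of TNF receptor 1, rose from 15.1 ± 0.192 to 20.4 ± 2.97 TPM, MLKL from 32.4 ± 1.40 to 40.5 ± 1.76 TPM and CASP10 from 4.46 ± 0.105 to 5.70 ± 0.601 TPM (SD over n = 3 per group), with log2FC values of 0.41, 0.31 and 0.29. FADD, the adaptor of the TRAIL receptors, fell by 0.16 on the log2 scale with overlapping groups (limma adjusted p = 0.0412). CASP8 and CFLAR were not called (log2FC values 0.17 and 0.06, limma adjusted p = 0.0511 and 0.417).

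Of 8 genes of ligand processing 4 rose (50%, against 21.7% of all genes) and 0 fell (against 15.9%). ADAM17, the protease that releases TNF and sheds TNF receptors, was at 27.0, 25.4 and 25.4 TPM with vehicle and at 33.7, 38.3 and 38.3 TPM with PDBAG1 (log2FC 0.48, limma adjusted p = 5.62e-05). The inactive rhomboid genes RHBDF2 and RHBDF1, whose products bring ADAM17 to the cell surface, rose by log2FC values of 0.74 and 0.47 (limma adjusted p = 1.63e-06 and 7.94e-05). FURIN, a protease that matures ADAM17 and several ligands, had a log2FC of 0.32 (limma adjusted p = 0.00339). ADAM10 and TIMP3, an inhibitor of ADAM17, were not called (log2FC values -0.06 and 0.06, limma adjusted p = 0.468 and 0.453).

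**Figure D4:**
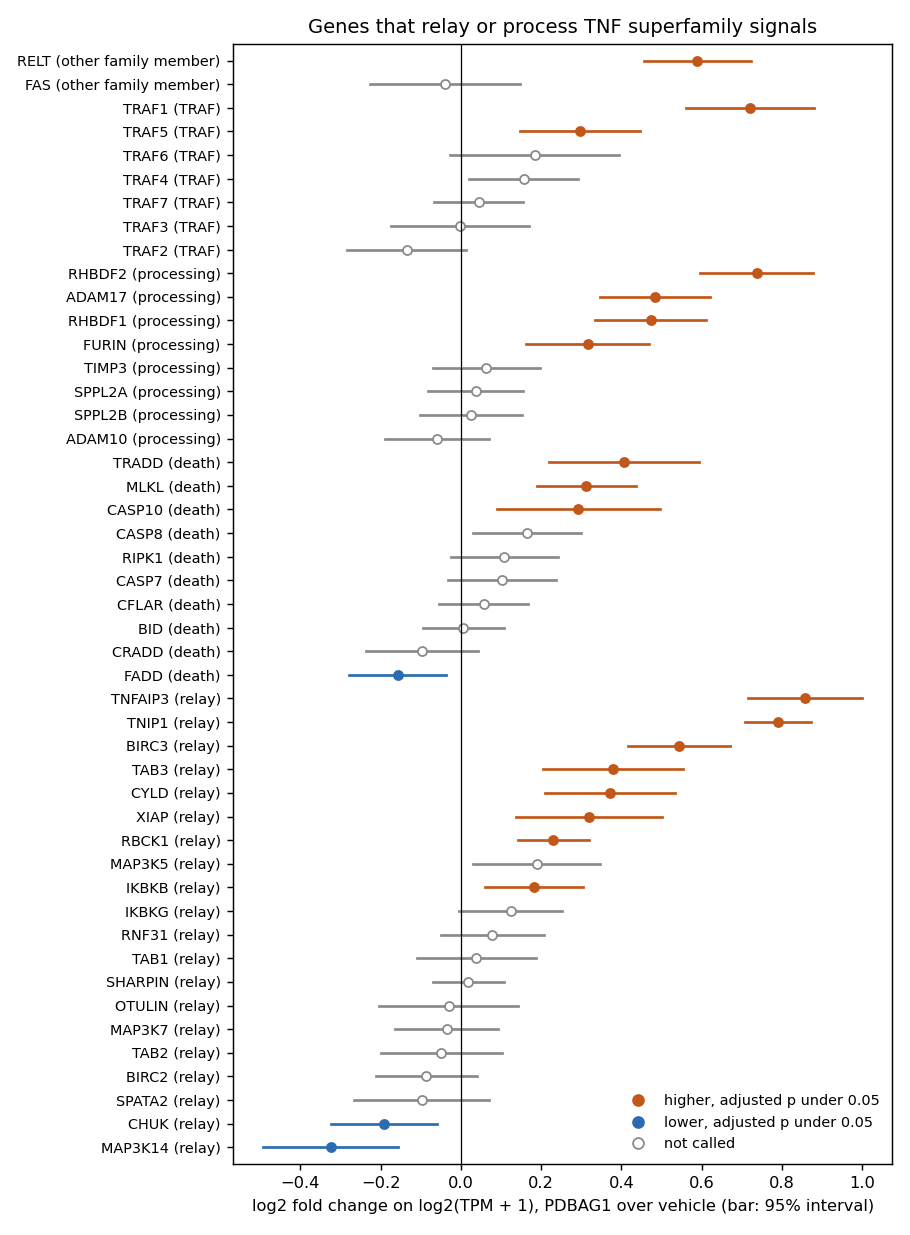
Log2FC with its 95% interval for the 47 expressed genes that relay or process TNF superfamily signals or belong to the family under other names (orange higher, blue lower, open grey not called). TNFAIP3 at 0.86, TNIP1 at 0.79, RHBDF2 at 0.74, TRAF1 at 0.72 and RELT at 0.59 pass the 1.5-fold limit upward. RELT passes it narrowly, and MAP3K14 at -0.32 is the lowest.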

How the data were processed

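Per the labels and the paper's methods, total RNA of MDA-MB-231 cells was made into mRNA libraries and sequenced on the BGISEQ500 platform. The methods name HISAT2, GRCh38.p13 and FPKM, whereas the submitters' processing notes name HISAT2 2.0.4, Bowtie2 2.2.5, RSEM 1.2.12 and GRCh38.p12. The values the authors deposited are TPM, 1 file per library, rounded to 2 decimals and summing to about 1000000 in each. Strand handling in the counting is not given in the sources used here.

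Libraries were grouped by their labels (3 vehicle, 3 PDBAG1). Genes listed at 1 TPM or above in no fewer than 3 libraries (12582) entered a limma-trend fit (limma 3.58.1, R 4.3.3) of log2(TPM + 1), with Benjamini-Hochberg adjustment over all of them. An exact permutation test of 3 against 3 cannot give a two-sided p under 0.1 and was not used. In simulated data for this comparison (200 genes changed), 99 of 100 genes changed 1.5-fold and 100 of 100 changed 2-fold were recovered, and 8 of 12382 unchanged genes were called. The changed genes were drawn from those with a mean log2(TPM + 1) above 2, and each variance was averaged with the median variance. Recovery of weaker genes, such as TNFSF18 at a mean of 1.12 and TNFRSF25 at 1.05, was therefore not tested. Members, gene lists and tests were chosen with earlier results of these data known. Named in the text were all expressed members, other members reaching 1 TPM, and in each list the called genes past 1.5-fold and the 3 largest called changes, and further members and list genes were named after their values were seen. One gene of the lists is not reported here and is left out of their counts. Positions are from GENCODE v44 and promoters from RefSeq. The alternatives were no filter, a mean TPM of at least 1, a 0.1 pseudocount, a block on the replicate number, median-of-ratios scaling, quantile normalization, a fold limit of 2 and each library left out in turn.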

Additional observations from a re-analysis of the deposited data

How the results depend on the processing

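Of the 16 called members, 9 were called in all 12 alternatives (TNFSF9, TNFSF15, TNFSF18, TNFRSF1B, TNFRSF10B, TNFRSF10D, TNFRSF14, TNFRSF19 and TNFRSF21), 7 lost the call in at least 1, and none changed sign. The causes were not tested. Among these 9, TNFSF18 passed the expression filter through the vehicle group alone, and fits with a library left out kept the genes of that filter. The number of called members was 15 with no filter (14 of the 16, with TNF gained), 15 with the replicate number as a block (replicate block), all of them among the 16, 14 under median-of-ratios scaling, all among the 16, and 14 under quantile normalization (13 of the 16, with TNFRSF1A gained). It was 12 to 15 with a library left out, of which 12 to 14 were among the 16, with TNFSF10, TNFRSF1A or TNFSF12 gained in 1 fit each. The labels tie no origin to the numbers, and deviations from the group means of libraries with equal number correlated at -0.21, 0.01 and -0.08. The block changed the call of TNFRSF11B alone among the members. Members past 1.5-fold numbered 7 (6 higher) with a pseudocount of 0.1 and 1 (0 higher) at a fold limit of 2, and 1 to 5 (0 to 4 higher, 1 lower) with a library left out. Lower relay and processing genes numbered 1 with no filter in place of 3, and 1 to 3 with a library left out, 1 without vehicle replicate 1 or PDBAG1 replicate 2 and 2 without vehicle replicate 3. The median log2 fold change was 0.03 to 0.12 for the ligands and 0.15 to 0.25 for the receptors over the filters, pseudocount and scalings, and 0.07 to 0.21 and 0.17 to 0.26 with a library left out. Signs turned in uncalled genes only, under median-of-ratios scaling for CD40 (log2 fold change -0.011) and under quantile normalization for LTB and TNFRSF11A (-0.049 and -0.022). With a library left out, the log2 fold change ranged from -0.0085 to 0.063 for CD40, from -0.054 to 0.18 for LTB, from -0.024 to 0.20 for TNFRSF11A, from -0.90 to 0.56 for TNFSF12-TNFSF13, from -0.077 to 0.21 for TNFSF13 and from -0.097 to 0.014 for FAS. TPM keeps no depth, so counting error cannot be given, and count-based tests were not run.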
